A study of Mus musculus with 2 samples.

Results

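The 10 Notch pathway genes Notch1, Notch2, Notch3, Jag1, Dll1, Dll4, Rbpj, Hes1, Hey1 and Heyl were taken by symbol from the 55487 genes listed in 2 single-cell RNA-seq libraries of regenerating mouse muscle. The KO library is labelled as a conditional Setdb1 knockout (Setdb1-cKO), and SETDB1 is a methyltransferase that places the repressive mark H3K9me3 on histones. The WT library is the one labelled wild type. Both were made from injured tibialis anterior (TA) muscle of mice 8 to 12 weeks old, digested with collagenase II and dispase, sorted on Hoechst and propidium iodide, and prepared with the 10x 3' v2 chemistry. Each group had 1 library. How many animals it pooled, how the muscle was injured, the day of sampling and the promoter that drives the Cre are not stated in the labels.

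Notch receptors are membrane proteins that are cleaved when a ligand on a neighbouring cell pulls on them. The freed intracellular domain enters the nucleus, joins the DNA-binding protein RBPJ, and switches on targets such as the HES and HEY repressors. In muscle, Notch signalling is known for keeping satellite cells, the muscle stem cells, undifferentiated, and in vessels for arterial identity, for restraining sprouting and for the maturation of the mural cells around the endothelium.

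The libraries held 5730 KO and 6314 WT cells after filtering, with 138667420 and 121703522 UMIs (unique molecular identifiers, each counting 1 captured RNA molecule) over all their barcodes; 6 of the cell barcodes were shared by both libraries. Levels are given as CPM, counts of a gene scaled to the total of the summed cells. Cell classes were rebuilt from marker genes and carry names ending in "like". Ratios are KO over WT. The values in parentheses after levels, shares and ratios are exact 95% intervals that cover counting error only. With 1 library a group there is no replicate check and no p-value, so a difference between the libraries cannot be told apart from one between the animals or the preparations. Setdb1 itself was read at 8.76 CPM in KO and 18.2 CPM in WT myogenic-like cells, a ratio of 0.480 (0.367 to 0.622). The labels do not state the deleted part, so whether these 3' tags lie outside it is not known here. Median depth was higher in KO in each of the 7 classes with at least 50 cells a library. It was 21300.5 UMIs in KO and 17391.5 in WT myogenic-like cells, and 11006.5 in KO and 9010 in WT endothelial-like cells. The UMI minimum for a cell was also higher in KO, 6297 against 5146 in WT. At a minimum of 2000 UMIs in both libraries, capillary endothelial-like cells had a median of 5325 in KO and 5326 in WT. Of the myogenic states described below, cycling-like cells were shallower in KO, with 29490.5 against 32138.5 in WT, as were differentiating-like cells. None of the 7 classes with at least 50 cells a library had a marker of its own list at 0. In 5 of them that list summed highest of all marker lists, the exceptions being dendritic-like cells, with phagocyte markers at 3324 CPM in KO and 2992 CPM in WT beside dendritic markers at 1467 CPM in KO and 1453 CPM in WT, and tenocyte-like cells, with fibroblast markers at 32099 CPM in KO and 24040 CPM in WT beside tenocyte markers at 11927 CPM in KO and 13037 CPM in WT. In endothelial-like cells the 10 endothelial markers summed to 6113 CPM in KO and 6310 CPM in WT, and none of the 10 was at 0.

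In GRCm38 coordinates the receptors lie at 2:26457903-26516663 on the minus strand (Notch1), 3:98013527-98150361 on the plus strand (Notch2) and 17:32120820-32166852 on the minus strand (Notch3). The ligand genes are at 2:137081456-137116644, minus (Jag1), 17:15367354-15376872, minus (Dll1), and 2:119325784-119335962, plus (Dll4). Rbpj is at 5:53466152-53657362, plus. The targets are at 16:30064384-30067796, plus (Hes1), 3:8663359-8667256, minus (Hey1), and 4:123233556-123249875, plus (Heyl). All 10 are protein-coding genes.

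Promoter windows of 300 bases (250 before to 50 after a start) from RefSeq, build GRCm38.p6, matched 7 of the 10 members, not Hes1, Hey1 or Heyl. Both strands were searched for TGGGAA, the core of the motif that RBPJ binds, and for CAGCTG, an E-box of the kind bound by MYOD1 and other basic helix-loop-helix factors. TGGGAA was in 25.56% and CAGCTG in 16.3% of the 32851 RefSeq windows. Shown are windows of genes that the myogenic and endothelial results turn on, with Nrarp, a Notch target and feedback inhibitor outside the 10, added because it differed most in stem-like cells. Capitals mark the matches.
Jag1, chr2:137116471-137116770, minus strand: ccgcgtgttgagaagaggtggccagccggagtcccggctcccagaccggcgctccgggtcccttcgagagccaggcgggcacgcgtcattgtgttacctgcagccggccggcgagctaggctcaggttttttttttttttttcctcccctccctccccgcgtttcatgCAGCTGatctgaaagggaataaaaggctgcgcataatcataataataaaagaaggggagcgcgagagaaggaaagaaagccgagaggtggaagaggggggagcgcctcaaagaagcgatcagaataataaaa
Nrarp, chr2:25180508-25180807, plus strand: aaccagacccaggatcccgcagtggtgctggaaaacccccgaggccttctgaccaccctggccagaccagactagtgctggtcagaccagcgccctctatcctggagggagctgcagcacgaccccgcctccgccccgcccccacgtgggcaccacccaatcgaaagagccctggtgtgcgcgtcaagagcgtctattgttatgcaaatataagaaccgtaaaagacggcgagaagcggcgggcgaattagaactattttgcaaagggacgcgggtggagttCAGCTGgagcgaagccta
Dll1, chr17:15376883-15377182, minus strand: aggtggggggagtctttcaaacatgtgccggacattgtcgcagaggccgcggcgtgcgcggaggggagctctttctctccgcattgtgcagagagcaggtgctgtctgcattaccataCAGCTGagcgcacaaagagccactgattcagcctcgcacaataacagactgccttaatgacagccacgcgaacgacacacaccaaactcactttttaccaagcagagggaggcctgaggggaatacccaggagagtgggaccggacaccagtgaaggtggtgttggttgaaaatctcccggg
Rbpj, chr5:53590096-53590395, plus strand: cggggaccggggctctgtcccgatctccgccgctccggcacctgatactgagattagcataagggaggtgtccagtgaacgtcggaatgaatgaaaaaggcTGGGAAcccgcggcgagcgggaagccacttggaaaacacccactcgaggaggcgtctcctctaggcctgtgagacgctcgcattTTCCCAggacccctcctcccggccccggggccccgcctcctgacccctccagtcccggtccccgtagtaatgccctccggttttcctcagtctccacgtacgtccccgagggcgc
Notch1, chr2:26503773-26504072, minus strand: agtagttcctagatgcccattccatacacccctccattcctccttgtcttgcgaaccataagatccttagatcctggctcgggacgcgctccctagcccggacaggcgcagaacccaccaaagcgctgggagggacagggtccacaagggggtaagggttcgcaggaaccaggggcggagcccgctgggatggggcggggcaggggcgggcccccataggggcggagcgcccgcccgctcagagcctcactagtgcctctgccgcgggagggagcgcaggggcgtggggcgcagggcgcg
Jag1, Nrarp and Dll1 each held 1 CAGCTG and no TGGGAA in these windows, Rbpj held 2 TGGGAA and no CAGCTG, and Notch1 held neither. No window shown held both motifs, so no matches overlapped. Dll1 and Rbpj each have another window, at chr17:15375774-15376073 and chr5:53590236-53590535. A match is a run of letters in the window and not a measured binding site.

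The 3 receptors were divided among cell classes. Orders of level are given among the 7 classes with at least 50 cells in both libraries. Notch1 was highest in endothelial-like cells, at 117 CPM (109 to 125) in KO and 72.2 CPM (66.1 to 78.8) in WT. Mural-like cells, the pericytes and smooth muscle cells of vessels, came next with 58.4 CPM in KO and 59.5 CPM in WT, and in WT their interval met that of the endothelial-like cells. Myogenic-like cells followed at 37.9 CPM in KO and 42.9 CPM in WT. By counts of molecules the picture was wider, since mononuclear phagocyte-like cells, by far the most numerous, held 35.8% of all Notch1 UMIs in KO cells and 31.0% in WT cells at only 20.1 and 14.4 CPM. Myogenic-like cells held 13.2% of the KO and 28.1% of the WT Notch1 UMIs, beside 372 KO and 682 WT cells of that class.

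Notch2 was highest in cells of the myeloid lineage, with 39.3 CPM in KO and 34.0 CPM in WT dendritic-like cells and 34.1 CPM in KO and 30.1 CPM in WT phagocyte-like cells. Tenocyte-like cells followed at 31.9 CPM in KO and 25.2 CPM in WT, and neighbours among these 3 classes did not differ beyond counting error. It was lowest in endothelial-like cells, at 3.72 CPM in KO and 2.57 CPM in WT. Notch3, which is known for its role in mural cells of arteries, was the most restricted receptor. It stood at 399.7 CPM (372 to 429) in KO and 320.5 CPM (292 to 350.5) in WT mural-like cells, then at 82.7 CPM in KO and 84.3 CPM in WT myogenic-like cells. In each of the other 5 classes with at least 50 cells a library it was below 20 CPM, and in phagocyte-like cells, at 0.726 CPM in KO and 0.611 CPM in WT, it was near the level that free RNA could give.

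The ligands had their highest levels in vessel cells. Dll4, the ligand of arterial endothelium and of sprouting tip cells, was highest in endothelial-like cells at 44.4 CPM (39.6 to 49.6) in KO and 32.0 CPM (28.0 to 36.5) in WT, and next in mural-like cells at 5.84 CPM in KO and 8.03 CPM in WT. Dll1 was also highest in endothelial-like cells, at 39.8 CPM (35.2 to 44.7) in KO and 18.0 CPM (15.01 to 21.5) in WT, with myogenic-like cells next at 16.7 CPM in KO and 13.6 CPM in WT. Jag1 was highest in mural-like cells, at 68.5 CPM (57.2 to 81.4) in KO and 91.0 CPM (76.3 to 108) in WT. Endothelial-like cells followed with 39.2 CPM in KO and 25.2 CPM in WT, and fibro-adipogenic or fibroblast-like cells (connective tissue progenitors, below "fibroblast-like") with 22.7 CPM in KO and 15.9 CPM in WT. Fibroblast-like cells, the deepest class by median UMIs, held 41.6% of the Jag1 UMIs of KO cells and 32.7% of those of WT cells.

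**Figure D1:**
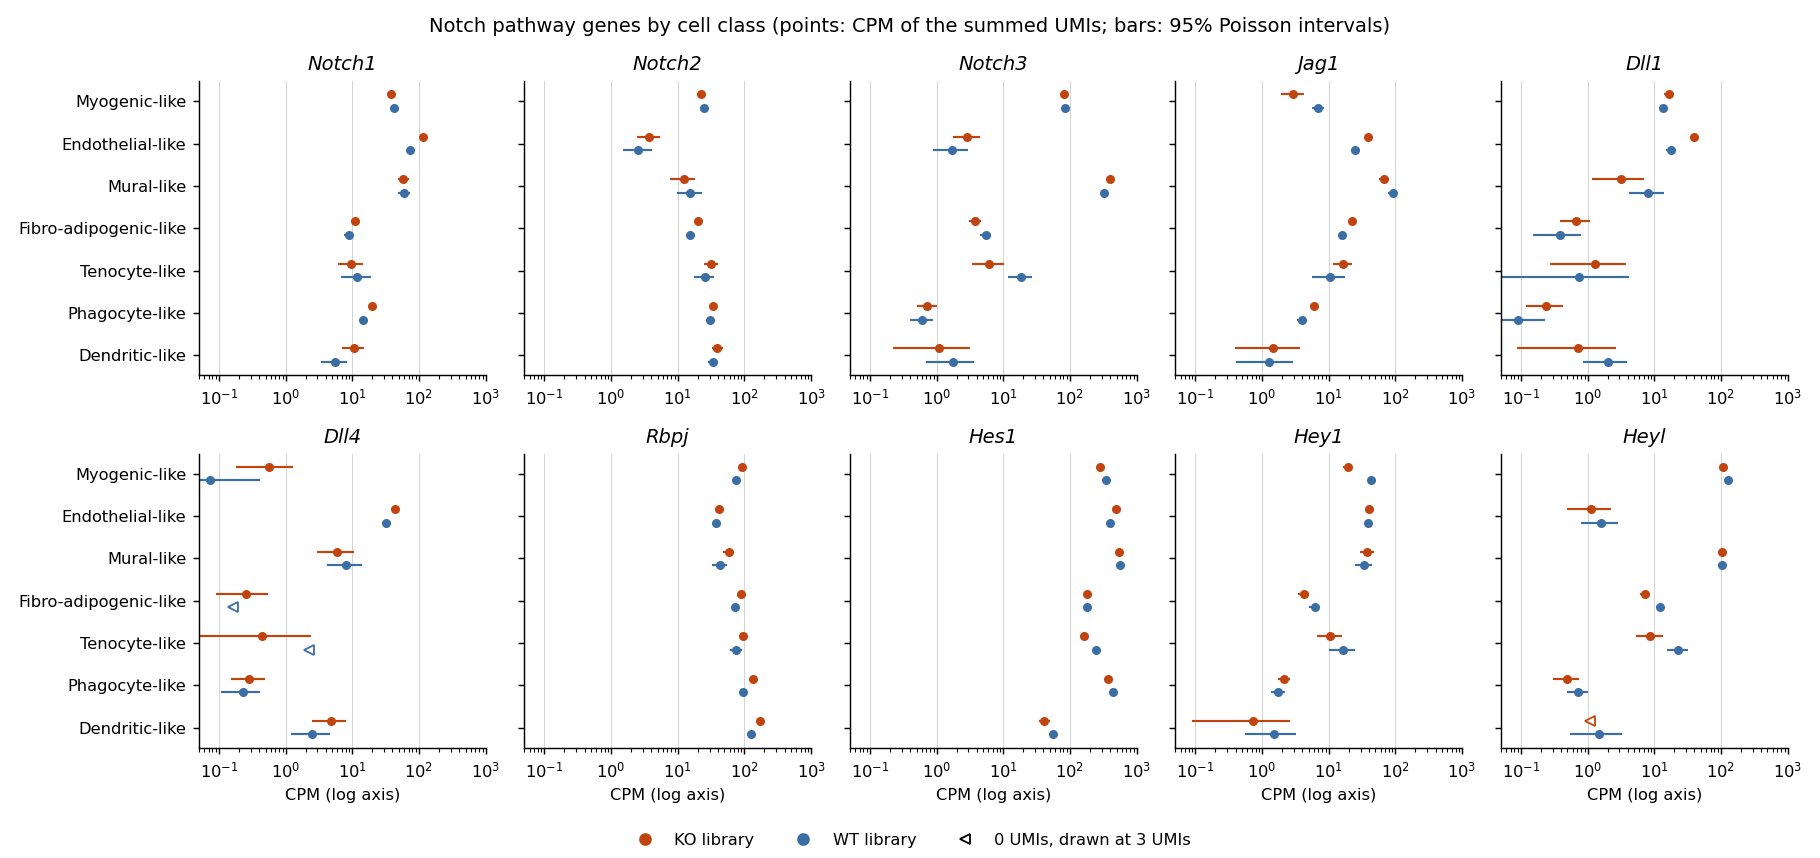
Level of each of the 10 genes (CPM, log axis starting at 0.05) in the 7 cell classes that hold 50 or more cells in both libraries, KO beside WT, with exact 95% Poisson intervals. Notch3 and Heyl are high in mural-like and myogenic-like cells, Dll4 and Dll1 in endothelial-like cells, and Rbpj and Notch2 in dendritic-like and phagocyte-like cells.

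Rbpj, the transcription factor shared by all mammalian Notch receptors, was detected in every class. It ran from 172 CPM in KO and 124 CPM in WT dendritic-like cells down to 41.9 CPM in KO and 37.3 CPM in WT endothelial-like cells. The endothelial-like class, highest of the 7 for Notch1, Dll1 and Dll4, was thus the lowest for Rbpj in both libraries, in WT within counting error of mural-like cells. Hes1 was also detected in all 7 classes, highest in mural-like cells at 537 CPM (505 to 571) in KO and 561 CPM (523 to 600.0) in WT and lowest in dendritic-like cells at 41.1 CPM in KO and 56.0 CPM in WT. Its second place differed between the libraries, being endothelial-like in KO (489 CPM) and phagocyte-like in WT (446 CPM).

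The HEY targets were high in fewer classes than Hes1. Heyl stood at 106 CPM in KO and 127 CPM in WT myogenic-like cells and at 104 CPM in KO and 105 CPM in WT mural-like cells. Endothelial-like cells had only 8 UMIs of Heyl in KO and 11 in WT. Hey1 was spread over 3 classes. It stood at 40.8 CPM in KO and 39.3 CPM in WT endothelial-like cells and at 37.7 CPM in KO and 33.5 CPM in WT mural-like cells. In myogenic-like cells it was 19.4 CPM (16.6 to 22.6) in KO and 42.7 CPM (39.3 to 46.4) in WT. In WT the neighbours in this order were not apart beyond counting error, whereas in KO the myogenic-like class lay below the other 2.

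**Figure D2:**
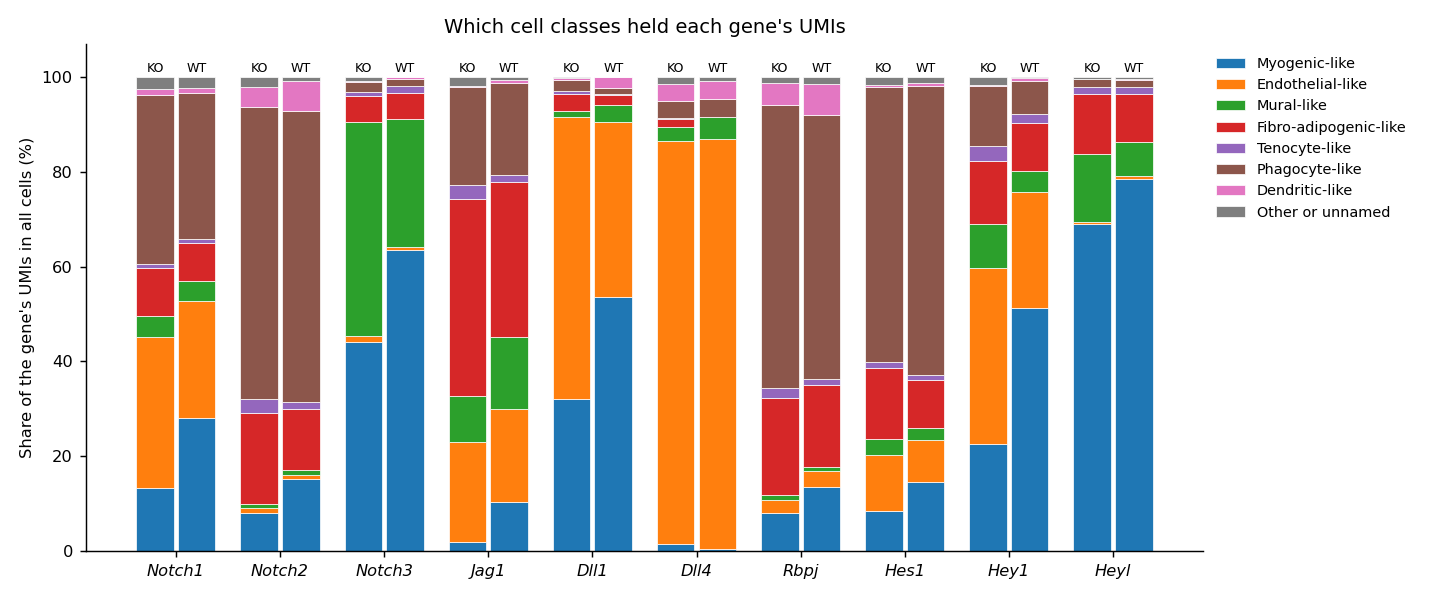
Share of each gene's UMIs (percent of those in all filtered cells of the library) held by each cell class, with the KO bar left of the WT bar. Phagocyte-like cells hold the largest shares of the Notch2 and Hes1 molecules, and the myogenic-like share of Hey1 is smaller in KO than in WT.

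The genes whose level over the 14 sums (7 classes in 2 libraries) was most like that of a member were taken by Pearson correlation of log2(CPM + 5), among 5379 genes. Those 14 sums share 2 libraries and 7 classes, so the correlations describe a distribution over classes. The 3 genes most like Notch3 were Hspb2 (r = 0.990), Dmpk (r = 0.983) and Synpo2 (r = 0.970), which are known from muscle. Dmpk and Hspb2 were also among the 3 most like Heyl, with Smarcd3 first (r = 0.987). Dll4 was most like Vwf (r = 0.995), which encodes the endothelial von Willebrand factor. Hey1 was most like Id1 (r = 0.966), a target of BMP signalling, and Notch1 most like Hip1 (r = 0.985). For Jag1 it was Pck2 (r = 0.963), for Dll1 Upp1 (r = 0.949), for Hes1 Dync1i2 (r = 0.928), for Rbpj Slc35c2 (r = 0.927) and for Notch2 Sdc4 (r = 0.911). Notch2, Dll1, Dll4 and Hey1 had no sum of 50 CPM, the level asked of the genes they were compared with.

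In the myogenic-like class as a whole, Hes1, Hey1 and Heyl were lower in KO and Rbpj was higher, while no receptor was past 1.5-fold. At the WT shares of the myogenic states, described below, the ratios were 0.494 for Hey1, 0.866 for Hes1 and 1.00 for Heyl. Of the 10 members 9 had at least 20 UMIs in both libraries together, 7 of them lower and 2 higher in KO. Past 1.5-fold, the size used as the call here, were Hey1 and Jag1, both lower. This stands beside 11.9% of all genes past it higher and 12.1% lower, 24% either way, so 2 of 9 is near the background. A wider list of 62 Notch pathway genes was counted in the same way. Of its 54 genes with 20 UMIs, 26 were higher and 28 lower, 4 and 7 of them past 1.5-fold, and the median log2 ratio was -0.02 against 0.03 over all genes.

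The myogenic-like cells fell into 3 states, and the mix of states differed between the libraries. Stem-like cells were 228 in KO and 585 in WT, cycling-like cells 80 in KO and 56 in WT, and differentiating-like cells 64 in KO and 41 in WT. Stem-like cells gave 53.8% of the KO and 78.0% of the WT myogenic-like UMIs. A ratio over the whole class therefore mixes the states. The Notch genes were left out when the states were built. The WT differentiating-like cells are fewer than 50 and their values are given as counts as well.

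Across states, Notch1 and Notch2 were lower in differentiating-like than in stem-like cells of both libraries. The stem-like over differentiating-like ratio of Notch1 was 2.11 (1.48 to 3.09) in KO and 2.35 (1.54 to 3.79) in WT, and that of Notch2 2.46 (1.49 to 4.29) in KO and 1.79 (1.08 to 3.17) in WT. Dll1 ran the other way, with 9.81 CPM (7.21 to 13.0) in KO and 10.7 CPM (8.80 to 12.9) in WT stem-like cells and 44.2 CPM (35.0 to 55.0) in KO and 45.4 CPM (33.5 to 60.0) in WT differentiating-like cells. Dll1 is the ligand that differentiating myoblasts are known to present to their neighbours, and in each state the interval of its KO over WT ratio held 1. Rbpj too was highest in differentiating-like cells, at 134 CPM in KO and 130.5 CPM in WT. The targets were lowest in that state. Heyl stood at 144 CPM in KO and 148 CPM in WT stem-like cells against 22.1 CPM in KO and 14.8 CPM in WT differentiating-like cells, ratios of 6.53 (4.74 to 9.22) in KO and 10.0 (6.14 to 17.5) in WT. For Hes1 the same ratio was 2.02 (1.78 to 2.30) in KO and 2.55 (2.18 to 3.00) in WT, and for Hey1 it was 1.57 (1.01 to 2.51) in KO and 3.72 (2.20 to 6.85) in WT.

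**Figure D3:**
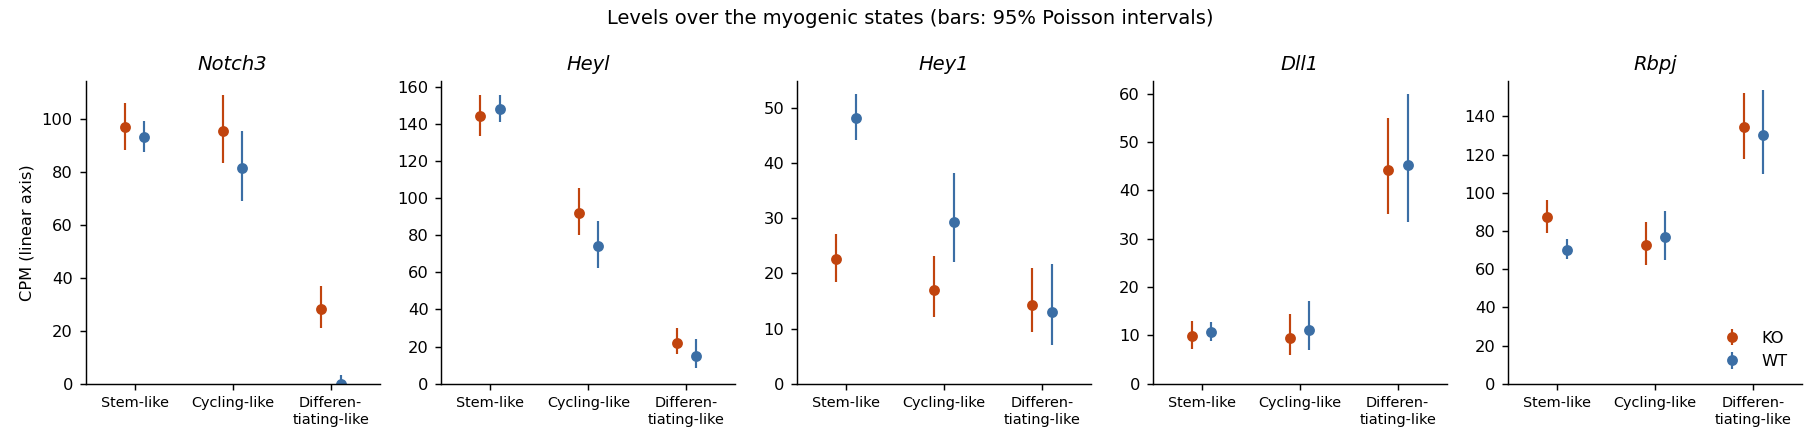
Level of Notch3, Heyl, Hey1, Dll1 and Rbpj (CPM, with exact 95% Poisson intervals) in stem-like, cycling-like and differentiating-like myogenic cells, KO beside WT. Heyl and Notch3 are lower in differentiating-like than in stem-like cells while Dll1 and Rbpj are highest in differentiating-like cells, and the Hey1 levels of KO lie below those of WT in the stem-like and cycling-like states.

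In stem-like cells Hey1, Jag1 and Nrarp were lower in KO, while the intervals of the receptors' ratios held 1. Of the 9 members with 20 UMIs 7 were lower and 2 higher, and the intervals of 3 lay below 1 (Hey1, Jag1, Hes1) and of 1 above 1 (Rbpj). Past 1.5-fold were Hey1 and Jag1, beside 12.7% of all genes past it higher and 11.1% lower.

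Hey1 had 108 UMIs in KO and 505 in WT stem-like cells, 22.5 CPM (18.5 to 27.2) in KO and 48.2 CPM (44.1 to 52.6) in WT, a ratio of 0.467 (0.376 to 0.577). The KO level lay under the WT level by far more than counting error. Cells with at least 1 Hey1 UMI were 29.4% of the KO and 39.3% of the WT stem-like cells, at median depths of 19121.5 and 16677 UMIs. Thinned to 5000 UMIs a cell the shares were 13.2% (9.06 to 18.2) in KO and 18.6% (15.6 to 22.0) in WT, whose intervals overlap. Phagocyte-like cells, which should lack Hey1, had a thinned share of 1.15% (0.816 to 1.56) in KO and 0.774% (0.511 to 1.12) in WT, at median depths of 12237 and 11434 UMIs. The shares with 3 or more Hey1 UMIs were 4.39% of KO and 11.1% of WT stem-like cells, with at most 6 UMIs in a KO cell and 16 in a WT cell. In cycling-like cells Hey1 was again lower in KO, at 16.9 CPM (12.1 to 23.2) in KO and 29.3 CPM (22.1 to 38.2) in WT, a ratio of 0.578 (0.373 to 0.887). Differentiating-like cells had only 26 UMIs in KO and 14 in WT, and the ratio of 1.11 (0.558 to 2.30) did not set the libraries apart.

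With the KO states weighted by the WT shares of UMIs, Hey1 in myogenic-like cells came to 21.1 CPM in KO against 42.7 CPM in WT, a ratio of 0.494 in place of 0.455. Weighted in this way, Heyl had a ratio of 1.00 in place of 0.834, so its whole-class difference was no longer there at equal shares. Dll1 had 0.925 in place of 1.24, and the interval of its whole-class ratio already held 1. No interval was computed for the weighted ratios. For Hes1 the ratio was 0.866 in place of 0.795, and for Rbpj 1.17 in place of 1.22. Within the stem-like state other genes differed beside Hey1. Pax7, the satellite cell transcription factor, was at 124 CPM in KO and 178 CPM in WT. Myod1, which drives commitment, was at 104 CPM in KO and 41.0 CPM in WT, and Top2a of dividing cells at 148 CPM in KO and 59.6 CPM in WT. Their part in the Hey1 difference was not tested beyond restricting the cells. Among stem-like cells with a Pax7 UMI the ratio of Hey1 was 0.48. When each cell was given its state by its own marker UMIs, which left 124 KO and 472 WT stem-like cells, it was 0.71.

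Jag1 had 18 UMIs in KO and 80 in WT stem-like cells, or 3.76 CPM (2.23 to 5.94) in KO and 7.64 CPM (6.06 to 9.51) in WT, a ratio of 0.492 (0.278 to 0.828). Jag2, the related ligand, was higher in KO, with 20 UMIs in KO and 15 in WT, a ratio of 2.91 (1.42 to 6.12). Both are low here. Nrarp, which binds the intracellular domain and limits its activity, had 16 UMIs in KO and 268 in WT stem-like cells, or 3.34 CPM (1.91 to 5.42) in KO and 25.6 CPM (22.6 to 28.8) in WT. Its ratio of 0.131 (0.0735 to 0.216) was the lowest of the wider list by the bound nearest to 1. Hes5, another target, had 1 UMI in KO and 16 in WT, and Hes7 had 1 in KO and 10 in WT, both under 20 UMIs. Hey2 had a ratio of 0.612 (0.224 to 1.46) and Hes6, a HES factor known from differentiating myoblasts, one of 1.08 (0.961 to 1.21). Neurl1a, a ubiquitin ligase that acts on ligands, was higher in KO at 13.2 CPM in KO and 5.16 CPM in WT, a ratio of 2.55 (1.75 to 3.74).

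Hes1 and Heyl did not share the size of the Hey1 and Nrarp differences. Hes1 was at 322 CPM (306 to 338) in KO and 382 CPM (371 to 394) in WT stem-like cells, a ratio of 0.842 (0.794 to 0.893). Heyl was at 144 CPM (134 to 155) in KO and 148 CPM (141 to 156) in WT, a ratio of 0.974 (0.889 to 1.07) whose interval holds 1. Rbpj was higher in KO, at 87.2 CPM (79.1 to 96.0) in KO and 70.3 CPM (65.3 to 75.5) in WT, a ratio of 1.24 (1.10 to 1.40). The receptors gave ratios of 0.901 (0.763 to 1.06) for Notch1, 0.923 (0.737 to 1.15) for Notch2 and 1.04 (0.927 to 1.16) for Notch3, each interval holding 1. Dll1 had a ratio of 0.917 (0.638 to 1.30), and Dll4 had 2 UMIs in KO and 1 in WT. Other cell types' markers were low but not equal in this state, with the 10 endothelial markers at 42.8 CPM in KO and 20.5 CPM in WT and the 15 phagocyte markers at 888 CPM in KO and 455 CPM in WT. Without cells holding 5 or more markers of either kind the ratios were 0.446 for Hey1, 0.401 for Jag1, 0.0313 for Nrarp (2 UMIs in KO and 183 in WT) and 1.01 for Hes1, so the lower Hes1 of KO was not seen in the remaining cells.

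**Figure D4:**
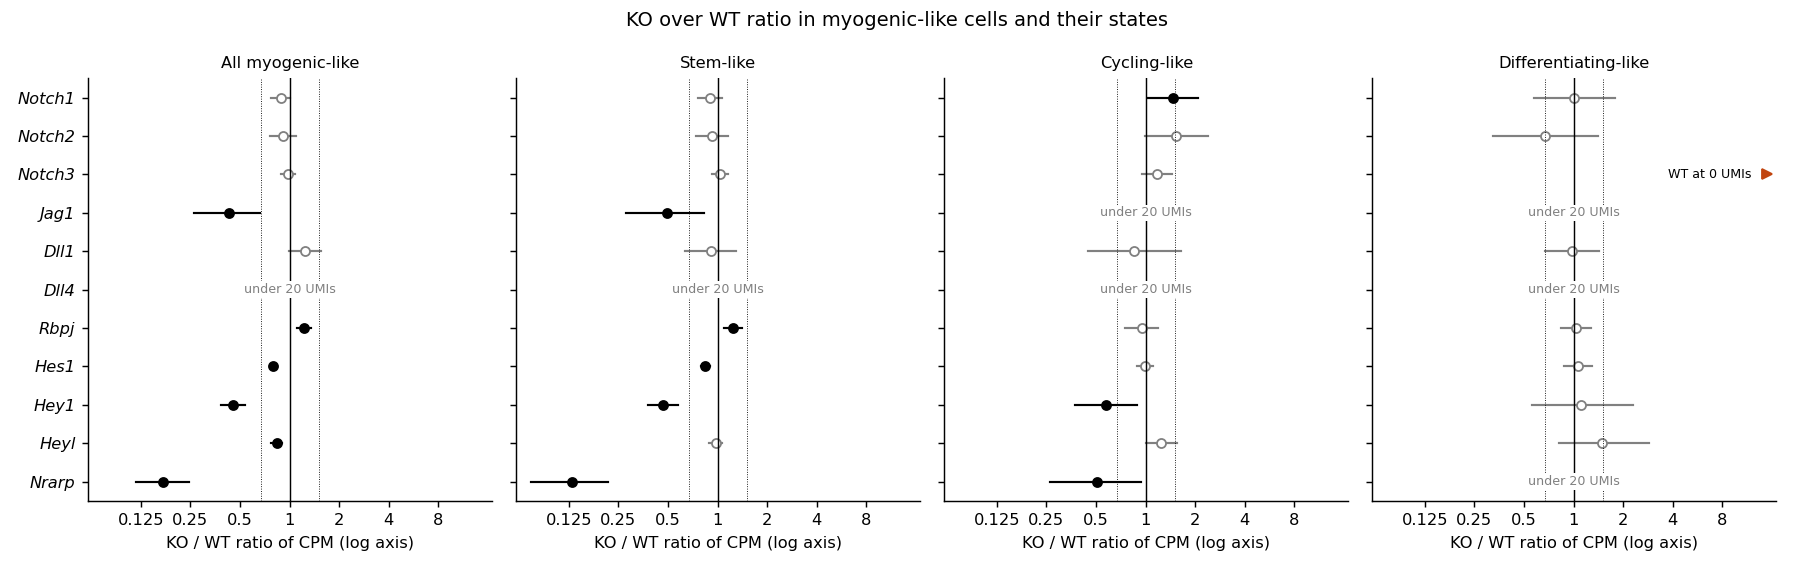
KO over WT ratio of the 10 genes and Nrarp (log axis, with exact 95% intervals, filled where they leave out 1, and dotted lines at 1.5-fold) in the myogenic-like class and its 3 states. The Hey1 ratio lies below 1 in the class, in stem-like cells (0.467) and in cycling-like cells (0.578), while the intervals of the receptors in stem-like cells hold 1.

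In cycling-like cells all 3 receptors had ratios above 1, with an interval above 1 for Notch1 alone. Of the 8 members with 20 UMIs 4 were higher and 4 lower, with Notch2 higher and Hey1 lower past 1.5-fold, beside 9.97% of all genes past it higher and 8.89% lower. Notch1 had 93 UMIs in KO and 52 in WT, or 40.4 CPM (32.6 to 49.5) in KO and 27.7 CPM (20.7 to 36.4) in WT, a ratio of 1.46 (1.03 to 2.09). Notch2 was at 27.8 CPM in KO and 18.1 CPM in WT with a ratio of 1.53 (0.997 to 2.40), which just holds 1. Heyl had 1.24 (0.999 to 1.55) and Notch3 1.17 (0.949 to 1.45). Dtx3l, of the Deltex family, was the lowest of the wider list with a ratio of 0.329 (0.193 to 0.542). Marker lists of other cells differed in both directions in this state. Higher in KO were 10 endothelial markers, at 37.4 CPM in KO and 14.4 CPM in WT, and 10 mural markers, at 1004 CPM in KO and 486 CPM in WT. So were 4 erythroid markers, at 2178 CPM in KO and 22.4 CPM in WT. Lower in KO were the 15 phagocyte markers, at 619 CPM in KO and 658 CPM in WT. So were 4 platelet or megakaryocyte markers, at 37.4 CPM in KO and 79.95 CPM in WT. Their part in the receptor ratios was not tested.

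In differentiating-like cells Notch3 separated the libraries. The 64 KO cells held 51 Notch3 UMIs in 25 cells, and the 41 WT cells held 0, at median depths of 23899.5 UMIs in KO and 25473 in WT. For the WT count of 0, a floor of 3 of the 41 cells stands at a share of 7.32%, which is not an interval bound. The KO level of 28.2 CPM was at least 10.1-fold higher than a floor of 3 UMIs in the WT sum, and the exact interval of the ratio, which also carries the counting error of KO, began at 7.96. Phagocyte-like cells, which should lack the receptor, had a Notch3 UMI in 0.881% of KO and 0.774% of WT cells. All 25 KO cells with Notch3 also held Myog, the regulator of terminal differentiation. Myog is a marker by which this state was named, so this was largely set by the naming. None of the 25 held the pericyte genes Kcnj8 or Pdgfrb, 2 held Rgs5, 8 held Pax7 and 11 held Heyl. Beside this, Myog was at 3321 CPM in KO and 4670 CPM in WT differentiating-like cells, and Mki67 of dividing cells had 10 UMIs in KO and 0 in WT. The part of how far the cells had differentiated was not tested. When each cell was named by its own marker UMIs the state held 126 Notch3 UMIs in 109 KO cells and 36 in 76 WT cells, so the count of 0 in WT depended on how the state was drawn. Of the 8 members with 20 UMIs 6 were higher and 2 lower, and Notch3 alone was past 1.5-fold, beside 12.9% of all genes past it higher and 10.2% lower. Hes1, at 159 CPM in KO and 149.9 CPM in WT, and Heyl, with a ratio of 1.49 (0.817 to 2.85), did not set the libraries apart.

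Endothelial-like cells of the KO library had more of the ligands and of Notch1. They were arterial-like (41 KO and 38 WT), capillary-like (298 KO and 448 WT) or venular-like (197 KO and 159 WT). A ratio over the class therefore mixes these states, and no ratio at equal shares was computed. All 9 members with 20 UMIs were higher in KO, and 4 (Dll1, Notch1, Jag1 and the sparse Notch3) were past 1.5-fold, beside 9.18% of all genes past it higher and 4.39% lower. Of all genes 62.4% were higher. Of the wider list 40 genes were higher and 11 lower, 7 past 1.5-fold higher and 0 lower, with a median log2 ratio of 0.12 against 0.06 over all genes. Marker lists of other cells differed in both directions in endothelial-like cells. The 15 phagocyte markers were at 1366 CPM in KO and 791 CPM in WT, and 4 erythroid markers at 753 CPM in KO and 121 CPM in WT. The 10 mural markers were lower in KO, at 305.5 CPM in KO and 402 CPM in WT. Without cells holding 5 or more phagocyte or mural markers, 2 members were past 1.5-fold.

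Dll1 was higher in KO. It had 278 UMIs in KO and 126 in WT endothelial-like cells, or 39.8 CPM in KO and 18.0 CPM in WT, a ratio of 2.21 (1.78 to 2.75). Thinned to 5000 UMIs, 16.8% (13.7 to 20.2) of KO and 7.91% (5.94 to 10.3) of WT cells held Dll1, against 0.0587% (0.00711 to 0.212) of KO and 0.0287% (0.000726 to 0.160) of WT phagocyte-like cells. The intervals of the endothelial shares did not overlap, and the unthinned shares were 30.4% in KO and 15.2% in WT. Notch1 was at 117 CPM in KO and 72.2 CPM in WT, a ratio of 1.62 (1.45 to 1.81), and a thinned 42.9% (38.7 to 47.2) of KO and 28.4% (24.9 to 32.0) of WT cells held it. Jag1 had a ratio of 1.56 (1.28 to 1.89), which came to 1.19 with the higher UMI minimum used in both libraries. Dll4 had a ratio of 1.39 (1.16 to 1.65), Jag2 of 1.30 (1.09 to 1.54), and Notch4, the endothelial receptor outside the 10, of 1.34 (1.16 to 1.55).

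Target levels in the endothelium were closer to each other than those of ligands and Notch1. Hes1 was at 489 CPM (473 to 506) in KO and 404 CPM (389 to 419) in WT, a ratio of 1.21 (1.15 to 1.27). Hey1 had a ratio of 1.04 (0.875 to 1.23) and Nrarp one of 0.940 (0.821 to 1.08), both holding 1. Rbpj, at 41.9 CPM in KO and 37.3 CPM in WT, had a ratio of 1.12 (0.947 to 1.33). Notch2 and Notch3, with 26 and 20 UMIs in KO and 18 and 12 in WT, were too few to place. Dtx3l and Cir1, a corepressor partner of RBPJ, were the lowest of the wider list with ratios of 0.863 (0.754 to 0.987) and 0.843 (0.717 to 0.992).

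By vessel segment, the arterial-like cells (41 KO and 38 WT) carried the highest Jag1, Dll4 and Hey1. Jag1 was at 236 CPM (197 to 282) in KO and 159 CPM (123 to 202) in WT arterial-like cells, 20 CPM in KO and 8.60 CPM in WT capillary-like cells, and 28.6 CPM in KO and 40.2 CPM in WT venular-like cells. Hey1, known for its role in arterial fate, was at 193 CPM in KO and 190.3 CPM in WT arterial-like cells and 42.0 CPM in KO and 40.1 CPM in WT capillary-like cells. The arterial over capillary ratio of Hey1 was 4.59 (3.55 to 5.90) in KO and 4.74 (3.61 to 6.19) in WT. Venular-like cells held 14 Hey1 UMIs in KO and 0 in WT, at least 3.27-fold above a floor of 3 UMIs in WT, with an exact interval of the ratio that began at 2.32. Where another filter let 1 WT UMI in, they held 16 to 20 in KO and 1 in WT. Dll4 was at 101 CPM in KO and 86.7 CPM in WT arterial-like cells and at 13.7 CPM in KO and 14.2 CPM in WT venular-like cells.

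The KO over WT differences were not alike in the segments. In arterial-like cells 7 of 7 tested members were higher and 2 past 1.5-fold, beside 19.8% of all genes past it higher and 8.47% lower. In capillary-like cells it was 9 of 9 and 4, beside 9.3% of all genes past it higher and 4.46% lower, and in venular-like cells 4 of 6 and 3, beside 11% of all genes past it higher and 5.74% lower. Notch1 was higher in KO in each segment, with ratios of 1.62 (1.11 to 2.40) in arterial-like, 1.56 (1.35 to 1.80) in capillary-like and 1.68 (1.35 to 2.10) in venular-like cells. Dll1 had ratios of 3.24 (1.65 to 6.94) in arterial-like and 2.98 (2.05 to 4.44) in venular-like cells and of 1.27 (0.921 to 1.74) in capillary-like cells. In KO, Dll1 was at 20.7 CPM in capillary-like and 61.7 CPM in venular-like cells, while in WT these were 16.4 and 20.7 CPM. Jag1 had a ratio of 2.33 (1.58 to 3.46) in capillary-like cells and of 0.711 (0.501 to 1.01) in venular-like cells, whose intervals do not overlap. With the higher UMI minimum in both libraries these Jag1 ratios were 1.11 and 0.640, so the capillary value rests on where that minimum lies. Dll1 in arterial-like cells came to 1.81 with doublets kept, when that state took in 334 KO and 494 WT cells. Dll4 was higher in capillary-like cells with 1.65 (1.34 to 2.03), and Hes1 in venular-like cells with 1.53 (1.37 to 1.72). The Hes1 level there was 395 CPM in KO and 258 CPM in WT. Notch4 had ratios of 2.21 (1.37 to 3.69) in arterial-like, 1.41 (1.21 to 1.66) in capillary-like and 3.08 (1.14 to 10.4) in venular-like cells.

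**Figure D5:**
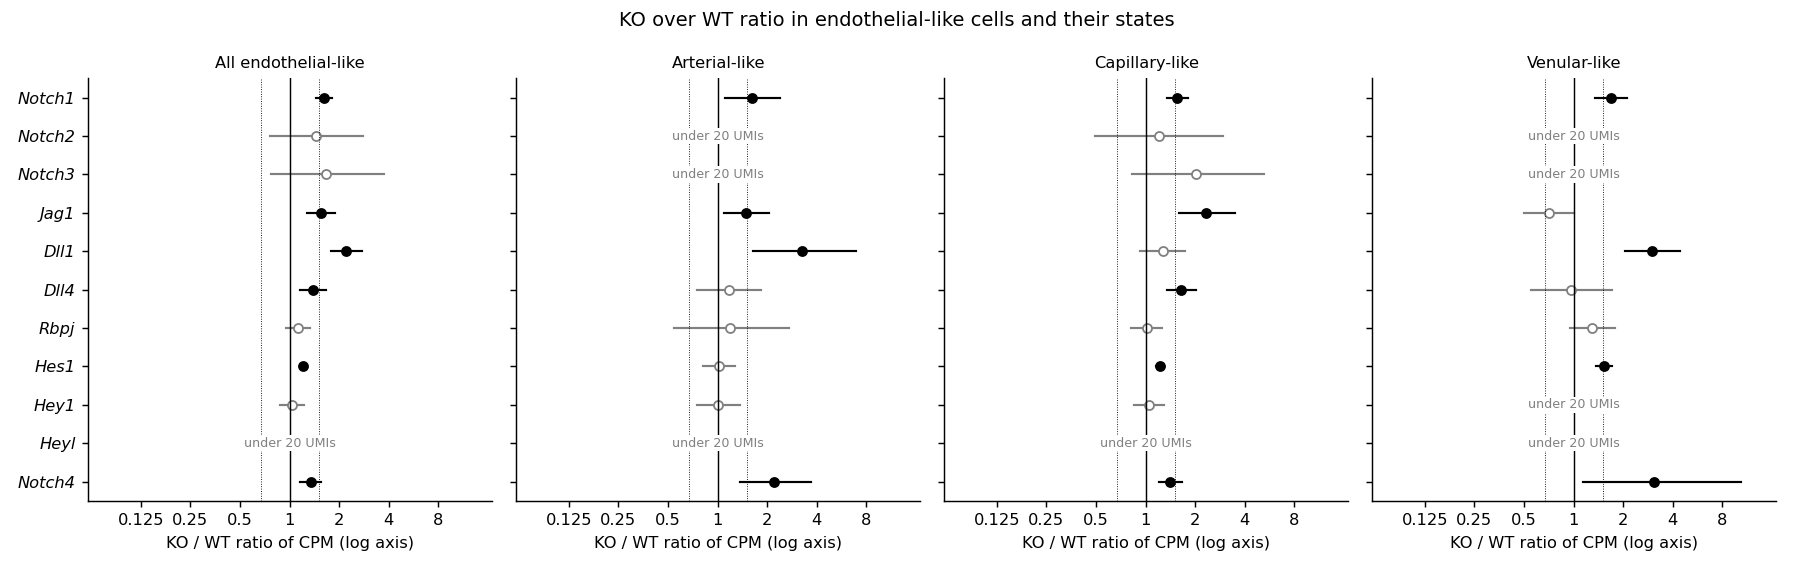
KO over WT ratio of the 10 genes and Notch4 (log axis, with exact 95% intervals, filled where they leave out 1, and dotted lines at 1.5-fold) in endothelial-like cells and their arterial-like, capillary-like and venular-like states. Notch1 lies above 1 in all 3 states, Dll1 in the arterial-like and venular-like states, and Jag1 lies above 1 in capillary-like cells and below 1 in venular-like cells with an interval that holds 1.

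Mural-like cells had fewer differences. Of the 9 members with 20 UMIs 3 were higher and 6 lower, and 0 were past 1.5-fold, beside 12.4% of all genes past it higher and 8.22% lower. Notch3 was at 399.7 CPM (372 to 429) in KO and 320.5 CPM (292 to 350.5) in WT, a ratio of 1.25 (1.11 to 1.40). Jag1 had a ratio of 0.753 (0.587 to 0.965), Hes1 of 0.958 (0.874 to 1.05), Heyl of 0.991 (0.799 to 1.23) and Nrarp of 1.05 (0.875 to 1.25). In the wider list Dlk1, a Delta-like protein, was highest at 96.1 CPM in KO and 30.8 CPM in WT, and Jag2 lowest at 12.2 CPM in KO and 28.1 CPM in WT. Its 52 tested genes were 28 higher and 24 lower, with a median log2 ratio of 0.04 against 0.05 over all genes.

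Pericyte-like cells (93 KO and 87 WT) and smooth muscle-like cells (31 KO and 34 WT) differed from each other in both libraries. Hes1 was at 1194 CPM (1087 to 1308) in KO and 885 CPM (793 to 985) in WT smooth muscle-like cells, against 368 CPM in KO and 451 CPM in WT pericyte-like cells. The pericyte-like over smooth muscle-like ratio of Hes1 was 0.309 (0.272 to 0.350) in KO and 0.509 (0.443 to 0.587) in WT. Jag1 was likewise higher in smooth muscle-like cells, at 153 CPM in KO and 132 CPM in WT against 46.7 CPM in KO and 77.1 CPM in WT pericyte-like cells. Between the libraries, 5 of 9 tested members were higher in pericyte-like cells, 1 past 1.5-fold higher and 1 lower, beside 14.1% of all genes past it higher and 9.41% lower. Those were Rbpj, with a ratio of 1.59 (1.10 to 2.33), and Jag1, with 0.606 (0.436 to 0.841). Pericyte-like cells also held endothelial markers, 1665 CPM in KO and 2919 CPM in WT for the 10 together, and erythroid markers at 16.7 CPM in KO and 5418 CPM in WT. Without cells holding 5 or more endothelial markers the Jag1 ratio was 1.03 and that of Hes1 1.35, against 0.817 (0.723 to 0.924) for Hes1 in all pericyte-like cells, so the lower KO values were not seen in the remaining cells. In smooth muscle-like cells 4 of 6 tested members were higher and 0 past 1.5-fold, beside 13.8% of all genes past it higher and 12% lower. Notch3 had a ratio of 1.35 (1.18 to 1.56) in pericyte-like and of 1.08 (0.868 to 1.34) in smooth muscle-like cells.

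In fibroblast-like cells the HEY targets and Notch3 were lower in KO, and Jag1, Notch2 and Rbpj higher. Of 9 members with 20 UMIs 6 were higher and 3 lower, with Dll1 higher and Heyl lower past 1.5-fold, beside 10.3% of all genes past it higher and 10.5% lower. Heyl was at 7.22 CPM (6.19 to 8.38) in KO and 12.1 CPM (10.6 to 13.8) in WT, a ratio of 0.596 (0.486 to 0.731). Hey1 had a ratio of 0.684 (0.518 to 0.902) and Notch3 of 0.696 (0.518 to 0.934). Jag1 was at 22.7 CPM in KO and 15.9 CPM in WT, a ratio of 1.43 (1.23 to 1.65), Notch2 had 1.33 (1.15 to 1.55) and Rbpj 1.23 (1.15 to 1.32). Hes1, with a ratio of 1.02 (0.970 to 1.06), did not set the libraries apart over the class, and Dll1 rested on 16 UMIs in KO and 7 in WT. Within the class the Hes1 ratio was 1.06 (1.00 to 1.11) in the largest cluster, 0.779 (0.694 to 0.876) in cells led by Hmmr and Prc1, genes of dividing cells, and 4.37 (3.56 to 5.39) in 9 KO and 34 WT cells led by Sfrp5. At a minimum of 2000 UMIs in both libraries, which brought in clusters of shallow KO cells, the Notch3 ratio was 1.06 and that of Notch2 2.21. In the wider list Hes5 had 12 UMIs in KO and 27 in WT and Dtx4 a ratio of 0.548 (0.443 to 0.676), while the fringe Mfng had 21 UMIs in KO and 4 in WT. Its 56 tested genes were 29 higher and 27 lower, with a median log2 ratio of 0.01 against 0.03 over all genes. Mural markers summed to 1786 CPM in KO and 864 CPM in WT fibroblast-like cells. Their part was not tested.

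Tenocyte-like cells (115 KO and 79 WT) also had Notch3 and Heyl lower in KO. Notch3 had 14 UMIs in KO and 25 in WT, a ratio of 0.331 (0.159 to 0.661), and Heyl 20 in KO and 31 in WT, a ratio of 0.381 (0.206 to 0.690). Hes1 was at 162 CPM in KO and 248 CPM in WT, a ratio of 0.652 (0.561 to 0.758). Hey1 was at 10.5 CPM (6.73 to 15.6) in KO and 16.3 CPM (10.2 to 24.7) in WT, and these intervals overlap. Of 8 tested members 3 were higher and 5 lower, 1 and 4 past 1.5-fold, beside 18.3% of all genes past it higher and 6.8% lower. With sums scaled by totals, as for the CPM given here, the median gene of this class was itself higher in KO, by 0.16 on the log2 scale. Scaling by median of ratios takes this shift out. Dtx2 was the highest of the wider list, with 31 UMIs in KO and 3 in WT.

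Phagocyte-like cells carried the largest counts, and there Rbpj was higher and Hes1 lower in KO. Of 9 members with 20 UMIs 7 were higher and 2 lower, with Jag1 alone past 1.5-fold, beside 7.58% of all genes past it higher and 5.11% lower. Rbpj was at 136 CPM (133 to 139.9) in KO and 95.3 CPM (92.4 to 98.2) in WT, a ratio of 1.43 (1.38 to 1.49). It was higher in KO in each of the 10 clusters that make up the class, with ratios from 1.18 to 2.41, and in 9 of them the interval lay above 1. Thinned to 5000 UMIs, 42.5% (40.9 to 44.2) of KO and 35.7% (34.1 to 37.4) of WT cells held an Rbpj UMI.

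Hes1 was at 373 CPM (367 to 378) in KO and 446 CPM (440.0 to 452) in WT phagocyte-like cells, a ratio of 0.835 (0.818 to 0.853), and this hid opposite directions in the clusters. It was lower in KO in 6 clusters and higher in 4. In cells led by Cx3cr1 it was at 683 CPM in KO and 1010 CPM in WT, a ratio of 0.676 (0.646 to 0.707). In cells led by Gpnmb and Fabp5 the ratio was 0.693 (0.660 to 0.727). In cells led by Cbr2 and Cd163, genes of resident macrophages, it was at 286 CPM in KO and 125 CPM in WT, a ratio of 2.29 (2.03 to 2.59). A small cluster led by Hp and Ly6c2 had a ratio of 2.34 (1.73 to 3.13) in 27 KO and 125 WT cells. Jag1 had a class ratio of 1.52 (1.25 to 1.85), but most of its UMIs came from cells led by Cxcl2 and Cxcl3, which were 603 in KO and 441 in WT, and within these it was at 21.3 CPM in KO and 18.1 CPM in WT, a ratio of 1.18 (0.916 to 1.52). Notch1 was higher in KO in 9 of 10 clusters, in 2 of them with an interval above 1, with a class ratio of 1.40 (1.26 to 1.55), and Notch2 had one of 1.13 (1.05 to 1.22). Nrarp was lower, with 45 UMIs in KO and 81 in WT, a ratio of 0.540 (0.367 to 0.787). Of the 54 tested genes of the wider list 42 were higher and 12 lower, with a median log2 ratio of 0.12 against 0.03 over all genes.

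In dendritic-like cells Rbpj was higher and Hes1 lower in KO over the class, but not in every cluster. Rbpj was at 172 CPM (157 to 189) in KO and 124 CPM (114 to 136) in WT, a ratio of 1.39 (1.22 to 1.58), and Hes1 had one of 0.735 (0.581 to 0.925). In the largest cluster, led by Cd209a, the Hes1 ratio was 1.14 (0.825 to 1.56), and in the one led by Xcr1 it was 0.498 (0.334 to 0.727). Rbpj had ratios of 1.67 (1.39 to 2.004) in the cluster led by Cd209a, 1.24 (1.01 to 1.51) in that led by Xcr1, and 0.756 (0.429 to 1.30) in a cluster of 27 KO and 46 WT cells led by Ccr7. Notch1 rested on 29 UMIs in KO and 22 in WT, a ratio of 1.92 (1.06 to 3.51). Of 5 tested members 4 were higher and 1 lower, with 2 past 1.5-fold higher, beside 12.1% of all genes past it higher and 6.79% lower. Crebbp and Fbxw7, a coactivator and a ligase that turns over the intracellular domain, were the highest of the wider list with ratios of 1.51 (1.23 to 1.87) and 1.84 (1.23 to 2.77).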

How the data were processed

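Per the values in the files, the authors deposited whole-number UMI counts per gene and barcode, unnormalized and with every barcode kept. GRCm38, STAR 2.7.8a, STARsolo 2.7.9a and Seurat 4.0.1 are listed, with no roles or settings, per the submitters' processing notes. Groups were taken from the sample titles. The members, the wider list and the marker lists were chosen with earlier results of these data known.

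Cells needed the 99th percentile of UMIs of the top 3000 barcodes divided by 10, which was 6297 in KO and 5146 in WT. Scrublet (scanpy 1.11.5) gave doublet scores, but with its default threshold it marked 0 barcodes, so the top scores were removed, 290 in KO and 356 in WT, a rule chosen after that was seen. The libraries were clustered together (leidenalg 0.10.2) without the 62 Notch list genes among the variable genes and without integration. Clusters were named from the marker lists by a scoring rule chosen after the data were seen, so a name may differ from the study's own.

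UMIs were summed per class or state and library and scaled to CPM. Intervals are exact (95%) Poisson for CPM, Clopper-Pearson for shares and conditional binomial for ratios. The ratio intervals were checked on simulated Poisson counts, the model they assume, so the check covers their calculation and not their fit to these sums. The intervals cover counting error only. A gene was tested for the 1.5-fold call with at least 20 UMIs in both sums together, and log2 ratios used CPM + 5. The level free RNA could give was taken from barcodes of 20 to 100 UMIs. Shares were taken after thinning each cell to 5000 UMIs, which every filtered cell held. The 10 members are given in full. Of the wider list the 2 highest and 2 lowest in a class, by the bound nearest to 1, were open to naming, with the other receptors, ligands and HES or HEY genes. Genes of phagocyte clusters and cell markers beside Hey1 and Notch3 were chosen after their values were seen. Coordinates are from the GENCODE M21 annotation of GRCm38.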

Additional observations from a re-analysis of the deposited data

Results flagged for a closer look

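The class sums of Jag1 differed between KO and WT in opposite directions in different classes. Its KO over WT ratio was 0.426 in myogenic-like cells, and 0.492 in stem-like cells, while cycling-like and differentiating-like cells held only 5 and 3 UMIs in KO and 9 and 3 in WT. It was 1.56 in endothelial-like cells, or 1.19 with the higher UMI minimum in both libraries, and 1.52 in phagocyte-like cells. Among endothelial states the recomputed ratios were 0.64 to 0.739 in venular-like cells and above 1 in arterial-like and capillary-like cells. In the 3 phagocyte clusters tested the ratios ran from 1.18 to 2.06, with an interval above 1 in 0 of them. The difference between these ratios was not tested, since each class gives 1 sum per library.

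At a minimum of 2000 UMIs in both libraries, the KO library held clusters of shallow cells that were nearly absent from WT and entered only the values recomputed at that minimum. In the largest, a fibroblast-like cluster of 1325 KO and 5 WT cells with a median of 2976 UMIs, Notch2 was at 85.1 CPM (77.3 to 93.5), from 433 UMIs, above its level in any of the 7 classes described. It was also high in other shallow KO clusters, at 85.8 CPM (68.2 to 106.5) in a myogenic-like cluster of 232 KO and 2 WT cells. Gsta4, Cck and Myog led this cluster against all cells, but the naming rule gave it no myogenic state. Against the other myogenic-like cells it was led by Ctss, Cd74 and C1qc, with the phagocyte marker Ms4a7 also among its leading genes. The part of phagocyte RNA in its Notch2 level was not tested. In a cluster of 473 KO and 32 WT cells Notch2 was at 74.3 CPM (63.1 to 87.0) in KO. The naming rule called that cluster endothelial-like, but the mural marker Rgs5 led it and its Notch3 was at 78.7 CPM in KO, so the name is uncertain. In that myogenic-like cluster Notch3 was at 27.2 CPM and Hes1 at 259 CPM.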

How the results depend on the processing

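Each ratio, share and count was recomputed under other UMI minimums, median-of-ratios scaling, a mean over cells, doublets kept, free RNA subtracted, another clustering resolution, cell-by-cell states, other thinning depths, list filters and pseudocounts, and, chosen after the data were seen, without cells holding 5 or more markers of other classes, without clusters held by 1 library, and with Pax7-positive cells only. Of 1047 recomputed values 960 stayed within the interval of the value given (or within 1.5 times it, for a count), 85 moved further and 2, both of a ratio past 1.5-fold, reversed. These were Jag1 in pericyte-like cells, with a ratio of 1.03 without cells holding 5 or more endothelial markers and of 1.16 at the higher UMI minimum. Of ratios nearer to 1 whose interval left out 1, Hes1 in pericyte-like cells (0.817) crossed to 1.03 as a mean over cells, 1.35 without those cells and 1.33 at the higher minimum, Hes1 in stem-like cells (0.842) to 1.01 without cells holding 5 or more phagocyte or endothelial markers, and Notch3 in fibroblast-like cells (0.696) to 1.06 at 2000 UMIs. With states named cell by cell, the Hey1 ratio in stem-like cells was 0.71 and 1 member was past 1.5-fold there. Without cells holding 5 or more phagocyte or mural markers, 2 members were past 1.5-fold in endothelial-like cells. The Nrarp ratio in stem-like cells ran from 0.0313 to 0.164, that of Dll1 in endothelial-like cells from 1.80 to 2.39 and that of Rbpj in phagocyte-like cells from 1.34 to 1.45. The causes of these moves were not tested. No paired analysis was possible because each group had 1 library, and no replicate could be left out. Low counts limit Jag1 in myogenic-like cells, Hey1 in venular-like cells and Notch3 and Heyl in tenocyte-like cells.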

Other observations

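Classes with fewer than 50 cells in a library entered no comparison. T or NK lymphocyte-like cells (48 KO and 58 WT) had Nrarp at 64.5 CPM (45.4 to 88.9) in KO and 108 CPM (87.4 to 131) in WT, and Hes1 at 75.0 CPM in KO and 46.7 CPM in WT. Markers of other cells also differed there, with erythroid markers at 64659 CPM in KO and 45027 CPM in WT, fibroblast markers at 2576 CPM in KO and 105 CPM in WT, endothelial markers at 376.5 CPM in KO and 35.8 CPM in WT, and mural markers at 441 CPM in KO and 5.43 CPM in WT, beside T or NK markers at 5020 CPM in KO and 6556 CPM in WT. Their part in the Nrarp and Hes1 values was not tested. Schwann or glial-like cells (26 KO and 32 WT) had Notch1 at 109 CPM (72.4 to 158) in KO and 78.0 CPM (50.5 to 115) in WT. A cluster of 35 KO and 22 WT cells held muscle fibre markers, at 34292 CPM in KO and 21150 CPM in WT, together with phagocyte markers, at 27399 CPM in KO and 30461 CPM in WT, so its values belong to neither cell type alone. It had Hes1 at 294 CPM (249.9 to 344) in KO and 536 CPM (455 to 628) in WT.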
